A study of Homo sapiens with 16 samples.

Results

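The expression of 10 genes of the hypoxia response was followed in A549 cells given 1 of 3 compounds: the 2 factor genes HIF1A and EPAS1, and 8 genes known as their targets outside glycolysis, EGLN3, CA9, VEGFA, ADM, NDRG1, BNIP3, P4HA1 and ANKRD37. They were taken by gene name, 10 of the 26182 genes with a value above 0 in any library. A549 is a human lung adenocarcinoma line, and all groups carried an overexpressed fusion of CD63, a membrane protein of exosomes, with the luciferase reporter Nluc. The groups were the solvent DMSO at 4 h, DMSO at 48 h, and the compounds 5G6, 6D7 and 7F8, each at 4 h and at 48 h, with 2 biological replicates each and 16 libraries in all. A dose of 4 µM stands in the label of each treatment, also that of DMSO, and the compounds are known by code names. All cells were of 1 line with the reporter, and oxygen was not varied by any label.

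Hypoxia-inducible factors are transcription factors made of an alpha subunit, encoded by HIF1A or EPAS1, and the partner ARNT. While oxygen is present, prolyl hydroxylases of the EGLN family mark the alpha subunit, VHL binds it and it is degraded, so the alpha subunits are known to be set mainly at the level of protein, which RNA libraries do not measure. When the alpha subunit is spared it binds DNA with the core letters ACGTG or GCGTG and raises genes of pH control, blood vessel growth, mitophagy and collagen maturation.

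Parts of 4 promoters are shown because the gene beside them was called at 48 h against DMSO (BNIP3, P4HA1, ADM) or between compounds (CA9). Each line is 30 bases of RefSeq sequence on the gene's own strand, 5′ to 3′, build GRCh38.p14: CA9 at chr9:35673897-35673926 (plus strand), BNIP3 at chr10:131982041-131982070 (minus), P4HA1 at chr10:73096936-73096965 (minus) and ADM at chr11:10304959-10304988 (plus). Capitals mark ACGTG or GCGTG on either strand, which read CACGT or CACGC when the match is on the other strand.
CA9: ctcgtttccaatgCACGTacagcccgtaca
BNIP3: cgcgCACGCgccgCACGTGccaCACGCacc
P4HA1: gtgtgatcgagctCACGTagcgagggctgc
ADM: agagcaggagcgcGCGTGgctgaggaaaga
The match lay 18 to 14 bases before the RefSeq start in CA9, 86 to 82 in P4HA1 and 101 to 97 in ADM. The gene positions printed further below share the RefSeq start for ADM, but not for CA9, BNIP3 and P4HA1. By those positions the stretches of CA9 and P4HA1 lie inside the gene. BNIP3 held 6 matches within 250 bases, 2 of ACGTG, which overlap on opposite strands as CACGTG, and 4 of GCGTG. ANKRD37 had 3 matches, HIF1A and EPAS1 had 1 each, and EGLN3 had 0. Of the 10 genes 8 were in the RefSeq promoter table, and NDRG1 and VEGFA were not matched there. The letters are common: among 27305 promoter windows of 250 bases, 18.682 percent held ACGTG, 31.906 percent GCGTG and 43.08 percent either. G and C made up 60.4 (CA9) to 81.6 percent (BNIP3) of the 8 windows, beside a median of 58.0 percent over all windows. The background was thus not matched for base content. A match is a description of the sequence, and binding was not measured.

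Expression was read in TPM, a length-scaled unit with the same sum in each library, from 1 gene table per library. The libraries held 6.10 to 8.86 aligned gigabases, and 13013 to 14568 genes reached 1 TPM. Changes are differences of log2(TPM + 1), which understates weakly expressed genes, from 1 limma fit of 15285 genes over all 16 libraries. A call means a p below 0.05 after Benjamini-Hochberg (BH) adjustment over those genes. The spread behind each p was estimated over all 8 groups together, not from the compared libraries alone. The mitochondrial tRNA gene TRNC took 0 to 28.6 percent of TPM and TPM sums to a fixed total. The 2 libraries with TRNC at 0 were those of 6D7 at 48 h. The median of all tested genes against DMSO at 48 h was 0.29 with 6D7, -0.07 with 5G6 and -0.21 with 7F8. Values after median-of-ratios scaling, which centres these medians near 0, therefore stand beside many of those on TPM. The line's markers AKR1B10, ALDH1A1 and NQO1 were at 693 TPM or more in every library. Of markers of other cell types COL1A2 and DCN were listed at 0 in all 16 libraries, PTPRC, PECAM1 and CDH5 stayed at or below 0.399 TPM, and COL1A1 ran from 2.27 to 14.4. Of 5 genes of lung identity SFTPA1 was listed at 0 in all 16 libraries, NKX2-1 in 13 and SFTPB in 10, SFTPC stayed at or below 0.424 TPM, and LAMP3 reached 5.99.

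**Figure D1:**
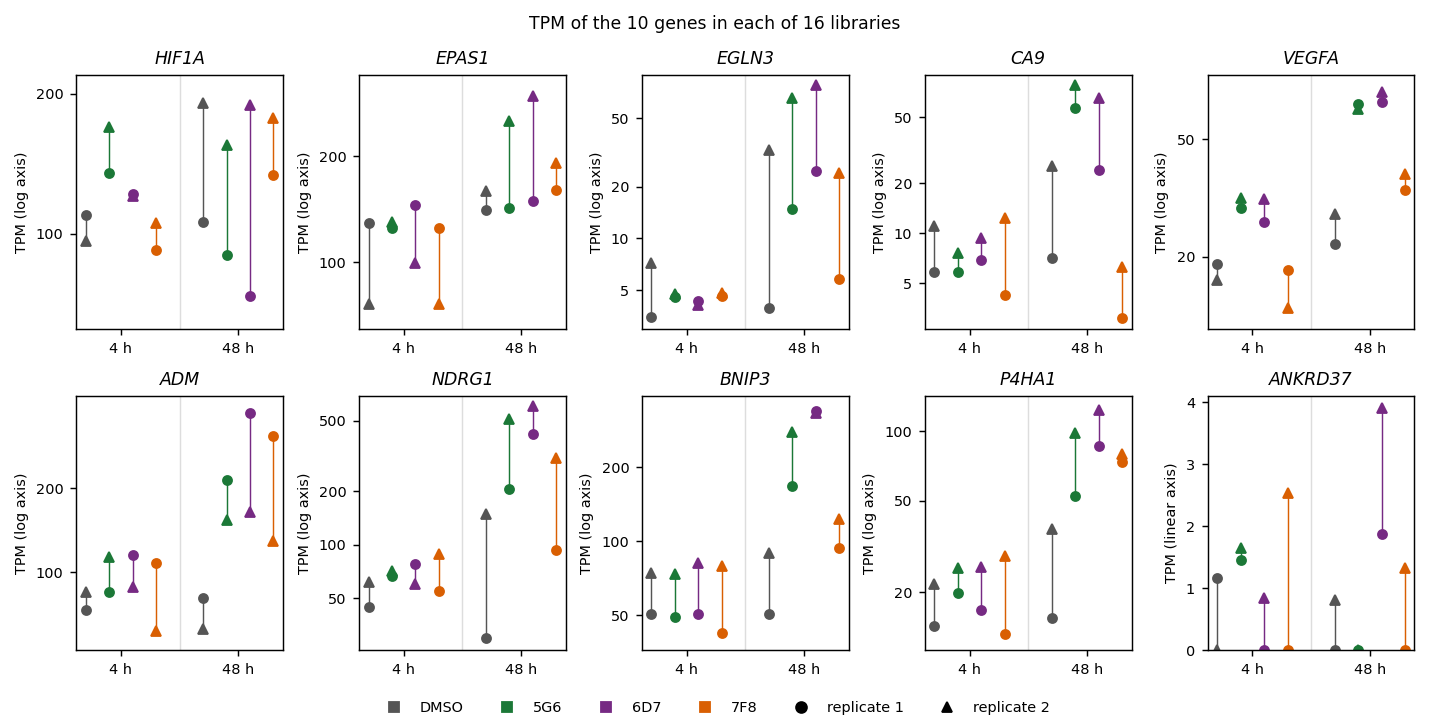
TPM of each gene (log axis, linear for ANKRD37) in every library, by time and treatment, with circles for replicate 1, triangles for replicate 2 and a line joining the pair. VEGFA at 48 h lies at 63.1 to 71.9 with 5G6 and 6D7 and at 22.0 and 27.8 in DMSO, while EGLN3 spreads from 3.92 to 32.7 within DMSO alone.

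HIF1A and EPAS1, the factor genes themselves, were called in no comparison. HIF1A (chr14:61695401-61748259, plus strand, GRCh38) stood at 106 and 191 TPM in DMSO at 48 h, 90.0 and 155 with 5G6, 73.2 and 189 with 6D7, and 133 and 178 with 7F8. The 4 pairs overlapped, and replicate 2 was the higher library in each. The log2 changes at 48 h were -0.27 ± 0.40 (SE) with 5G6, -0.27 ± 0.40 with 6D7 and 0.11 ± 0.40 with 7F8, with limma BH-adjusted p of 0.799, 0.698 and 0.901. Their 95% intervals ran from -1.15 to 0.61, from -1.16 to 0.61 and from -0.77 to 0.99. Median-of-ratios scaling gave -0.18, -0.61 and 0.37 in the order 5G6, 6D7, 7F8 (limma BH-adjusted p = 0.838, 0.316 and 0.574). At 4 h HIF1A was 110 and 96.3 TPM in DMSO, 135 and 170 with 5G6, 121 and 121 with 6D7, and 92.0 and 105 with 7F8. The antisense genes HIF1A-AS1 (0 to 3.75 TPM) and HIF1A-AS2 (0 to 0.58 TPM) overlap or neighbour HIF1A, and whether counting used strand was not given in the sources used here.

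EPAS1 (chr2:46297407-46386697, plus strand) encodes the other alpha subunit, which shares the partner ARNT. At 48 h its TPM was 141 and 160 in DMSO, 143 and 252 with 5G6, 149 and 297 with 6D7, and 161 and 192 with 7F8. The 7F8 libraries lay just above both DMSO libraries, and the other pairs overlapped with DMSO. The log2 changes were 0.34 ± 0.38 (SE), 0.49 ± 0.38 and 0.22 ± 0.38 in the order 5G6, 6D7, 7F8, with limma BH-adjusted p of 0.718, 0.432 and 0.765. Median-of-ratios scaling gave 0.43, 0.15 and 0.48 in the same order (limma BH-adjusted p = 0.575, 0.852 and 0.469). At 4 h EPAS1 ran from 75.7 to 146 TPM over the 8 libraries, and the widest pair was DMSO with 129 and 75.7.

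Target genes were called higher than in DMSO at 48 h with 5G6 and 6D7, and with 7F8 none was called on TPM and 2 were after median-of-ratios scaling. With 5G6 2 of 10 genes rose, VEGFA and BNIP3, where 1.87 percent of all tested genes were called higher. With 6D7 5 of 10 rose, NDRG1, BNIP3, P4HA1, ADM and VEGFA, where 10.9 percent were called higher. With 7F8 it was 0 of 10 against 2.08 percent called higher. Calls in either direction made up 3.38, 12.4 and 8.49 percent of all tested genes in the order 5G6, 6D7, 7F8. No gene of the 10 was called lower with any compound on TPM or after median-of-ratios scaling, where 1.51, 1.52 and 6.4 percent of all tested genes were called lower on TPM and 1.46, 3.23 and 3.82 percent after scaling. After median-of-ratios scaling limma called 4 of 10 higher with 5G6 (VEGFA, BNIP3, CA9 and P4HA1; background 2.47 percent), 4 with 6D7 (BNIP3, VEGFA, P4HA1 and NDRG1; 3.09 percent) and 2 with 7F8 (P4HA1 and VEGFA; 3.69 percent). The median log2 change of the 10 genes was 1.34 with 5G6, 1.63 with 6D7 and 0.37 with 7F8, and 1.43, 1.34 and 0.62 after scaling. Both compound libraries lay above both DMSO libraries for 5G6 in 6 of 10 genes, for 6D7 in 6 and for 7F8 in 5, beside 19.4, 45.2 and 15.1 percent of all tested genes. The 3 comparisons share the same 2 DMSO libraries. In bulk RNA, more cells with a transcript and more of it per cell cannot be told apart. The sum of 4 A549 markers (AKR1B10, AKR1C1, ALDH1A1 and NQO1) was 10354 to 11938 TPM in DMSO at 48 h, 5358 to 7377 with 5G6, 3323 to 10130 with 6D7 and 4416 to 4818 with 7F8. The sum of 5 epithelial markers was 3497 to 3626 TPM in DMSO, 3716 to 4416 with 5G6, 2563 to 5419 with 6D7 and 1660 to 1990 with 7F8, and the part of either sum in these results was not tested.

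**Figure D2:**
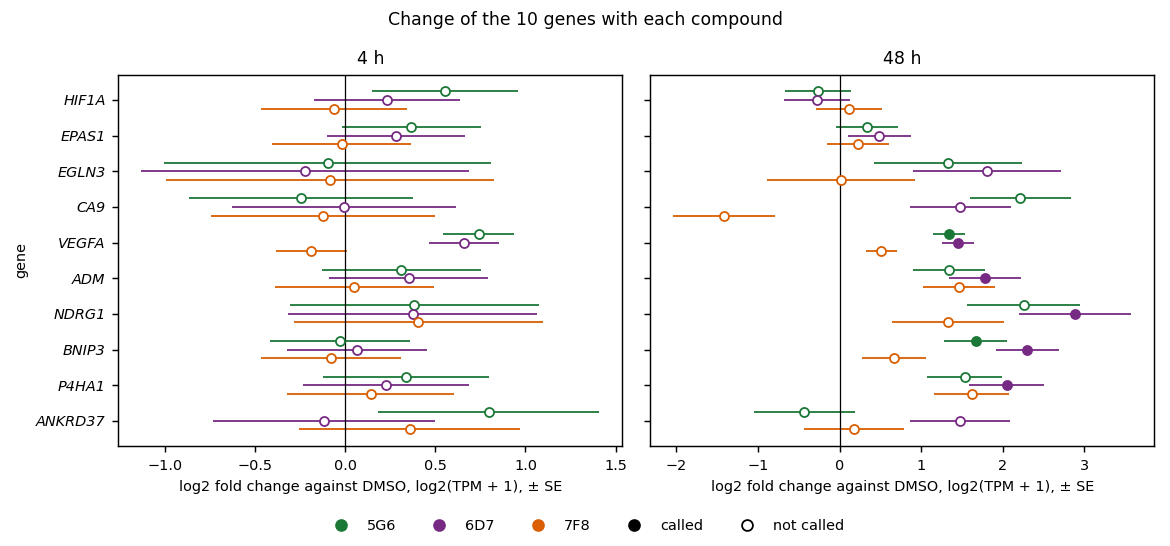
Log2 fold change against DMSO of the same hour (x axis, log2(TPM + 1), bars ± SE, 2 libraries a group) for each gene and compound, with filled points called by limma at a BH-adjusted p below 0.05. The 7 filled points are all at 48 h, 2 with 5G6 and 5 with 6D7, and HIF1A stays within 0.28 of 0 there on TPM.

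VEGFA, the secreted growth factor for blood vessels (chr6:43770209-43786487, plus strand), had the smallest residual spread of the 10 genes. At 48 h it was 22.0 and 27.8 TPM in DMSO, 65.6 and 63.1 with 5G6, 66.7 and 71.9 with 6D7, and 33.6 and 38.0 with 7F8. All compound libraries exceeded both DMSO libraries, and 7F8 lay between DMSO and the other 2 compounds. VEGFA rose by 1.34 ± 0.20 (SE) on the log2 scale with 5G6 (limma BH-adjusted p = 0.00891) and by 1.45 ± 0.20 with 6D7 (adjusted p = 0.00221). Median-of-ratios scaling gave 1.43 with 5G6 (limma BH-adjusted p = 0.00499) and 1.11 with 6D7 (0.0106). With 7F8 the change was 0.51 ± 0.20, adjusted p = 0.126, and 0.76 with adjusted p = 0.0359 after median-of-ratios scaling. The 6D7 call held in each of 14 alternative settings, with adjusted p from 0.000831 to 0.0384. The 5G6 call held in 10 of 14 and was lost without DMSO replicate 1 (adjusted p = 0.117), without 5G6 replicate 1 (0.0712), without 5G6 replicate 2 (0.0644) and with the libraries of 48 h alone (0.0658). Of all tested genes 9.408 percent had a smaller residual spread.

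ADM encodes adrenomedullin, a secreted peptide that widens vessels (chr11:10305073-10307397, plus strand). At 48 h it was 81.0 and 62.6 TPM in DMSO, 214 and 154 with 5G6, 372 and 165 with 6D7, and 306 and 129 with 7F8. All 6 compound libraries lay above both DMSO libraries, and replicate 1 was the higher in each of the 4 groups, the reverse of most of the other genes. ADM rose by 1.78 ± 0.44 (SE) with 6D7 (limma BH-adjusted p = 0.0243). The change was 1.34 ± 0.44 with 5G6 (adjusted p = 0.128) and 1.47 ± 0.44 with 7F8 (adjusted p = 0.0605). After median-of-ratios scaling the 6D7 change was 1.45 with adjusted p = 0.120, and over the 14 alternatives its adjusted p ran from 0.00511 to 0.175 with 5 calls. Without DMSO replicate 1, DMSO replicate 2 or 6D7 replicate 1 the 6D7 change was not called (adjusted p = 0.114, 0.103 and 0.175) and was at its lowest, 1.20, without 6D7 replicate 1.

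CA9, a membrane carbonic anhydrase that keeps the inside of the cell from turning acid (chr9:35673809-35681159, plus strand), stood above DMSO with 5G6 and below it with 7F8. Its TPM at 48 h was 7.10 and 25.5 in DMSO, 56.9 and 78.7 with 5G6, 24.0 and 65.5 with 6D7, and 3.12 and 6.29 with 7F8. Both 5G6 libraries were above DMSO and both 7F8 libraries below it, while the lower 6D7 library fell between the DMSO libraries. The log2 change was 2.21 ± 0.62 (SE) with 5G6 (limma BH-adjusted p = 0.0789, and 2.31 with 0.0444 after median-of-ratios scaling). It was 1.48 ± 0.62 with 6D7 (adjusted p = 0.136) and -1.42 ± 0.62 with 7F8 (adjusted p = 0.180). The 95% interval with 7F8 was -2.77 to -0.07, before adjustment over genes. These values rested on the DMSO libraries: without DMSO replicate 1 they were 1.36, 0.62 and -2.27 with 5G6, 6D7 and 7F8, and without DMSO replicate 2 they were 3.07, 2.33 and -0.56, none called (limma BH-adjusted p from 0.058 to 0.731). Without 6D7 replicate 2 the 6D7 value was 0.77 (adjusted p = 0.512).

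NDRG1, a cytoplasmic protein linked to differentiation and stress (chr8:133237171-133297587, minus strand), had the largest change of the 10 genes with 6D7. At 48 h it was 29.9 and 149 TPM in DMSO, 206 and 510 with 5G6, 421 and 602 with 6D7, and 93.4 and 309 with 7F8. The DMSO libraries differed 5.00-fold, both 5G6 and both 6D7 libraries exceeded them, and the lower 7F8 library did not. NDRG1 rose by 2.89 ± 0.69 (SE) with 6D7 (limma BH-adjusted p = 0.0216, and 2.55 with 0.0352 after scaling). It was 2.25 ± 0.69 with 5G6 (adjusted p = 0.104) and 1.33 ± 0.69 with 7F8 (adjusted p = 0.259). The 6D7 value was 1.75 without DMSO replicate 1 (adjusted p = 0.194), 3.15 without 6D7 replicate 1 (0.0805) and 2.63 without 6D7 replicate 2 (0.0657), and it was called in 7 of 14 alternatives (adjusted p from 0.00327 to 0.194).

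BNIP3, a mitochondrial membrane protein that marks mitochondria for mitophagy (chr10:131967683-131982013, minus strand), rose with 5G6 and with 6D7. It was 50.7 and 89.2 TPM in DMSO at 48 h, 167 and 278 with 5G6, 340 and 332 with 6D7, and 93.6 and 123 with 7F8. Both libraries of each compound lay above both of DMSO, with 7F8 closest to it. The rise was 1.67 ± 0.39 (SE) on the log2 scale with 5G6 (limma BH-adjusted p = 0.0408) and 2.30 ± 0.39 with 6D7 (adjusted p = 0.00562), and the 7F8 change was 0.66 ± 0.39 (adjusted p = 0.322). Median-of-ratios scaling gave 1.76 with 5G6 (limma BH-adjusted p = 0.0175), 1.97 with 6D7 (0.00936) and 0.92 with 7F8 (0.119). The 6D7 call was lost in 1 of 14 alternatives, without DMSO replicate 1 (1.90, adjusted p = 0.0735; lowest 0.000191). The 5G6 call was lost without any 1 of its 4 libraries: the value was 1.26 without DMSO replicate 1 (adjusted p = 0.321), 2.07 without DMSO replicate 2 (0.0624), 2.03 without 5G6 replicate 1 (0.102) and 1.30 without 5G6 replicate 2 (0.193). It held in 7 of 14 alternatives (lowest adjusted p 0.00196).

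P4HA1, the catalytic subunit of the hydroxylase that matures collagen (chr10:73007217-73096974, minus strand), had the largest log2 rise of the targets with 7F8. That of ADM lay close, at 1.47 beside 1.62, a gap smaller than the SE of either. At 48 h it was 15.4 and 37.8 TPM in DMSO, 52.3 and 98.7 with 5G6, 86.0 and 124 with 6D7, and 73.5 and 79.4 with 7F8. No compound library overlapped with DMSO. P4HA1 rose by 2.05 ± 0.46 (SE) with 6D7 (limma BH-adjusted p = 0.0175, and 1.72 with 0.0308 after median-of-ratios scaling). The change was 1.53 ± 0.46 with 5G6 (adjusted p = 0.0981) and 1.62 ± 0.46 with 7F8 (adjusted p = 0.0505), and after median-of-ratios scaling both were called, at 1.62 (0.0447) and 1.87 (0.0176). The 6D7 value was 1.43 without DMSO replicate 1 (adjusted p = 0.170), 2.31 without 6D7 replicate 1 (0.0556) and 1.79 without 6D7 replicate 2 (0.0587), and 9 of 14 alternatives called it (lowest adjusted p 0.000725). The 7F8 value was called in 7 of 14, with adjusted p from 0.000909 to 0.298.

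EGLN3, a prolyl hydroxylase that is both a target of the factors and a brake on them (chr14:33924215-33951078, minus strand), was called with no compound, and its replicates lay far apart. At 48 h it was 3.92 and 32.7 TPM in DMSO, 14.7 and 65.4 with 5G6, 24.5 and 78.0 with 6D7, and 5.82 and 24.1 with 7F8. The DMSO libraries differed 8.35-fold, and every compound pair overlapped with them. The log2 changes were 1.33 ± 0.91 (SE), 1.80 ± 0.91 and 0.02 ± 0.91 in the order 5G6, 6D7, 7F8, with limma BH-adjusted p of 0.491, 0.210 and 0.993. Without DMSO replicate 1 the 5G6 value was -0.06, so its direction rested on that library. Its residual spread exceeded that of 98.98 percent of tested genes.

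ANKRD37, a small ankyrin repeat protein (chr4:185396841-185400243, plus strand), was near the floor of detection, listed at 0 in 7 of 16 libraries and at most 3.91 TPM. At 48 h it was 0 and 0.82 TPM in DMSO, 0 and 0 with 5G6, 1.87 and 3.91 with 6D7, and 0 and 1.34 with 7F8. Both 6D7 libraries were above both DMSO libraries, and the log2 change was 1.48 ± 0.61 (SE; limma BH-adjusted p = 0.133). All 10 genes passed the filter of 1 TPM in at least 2 libraries, this gene with 7 libraries at 1 TPM or more and the others with 16.

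At 4 h limma called 0 of 10 genes with each compound, where 0.0196 percent of all tested genes were called with 5G6, 0 percent with 6D7 and 0 percent with 7F8. An unadjusted p under 0.05 was reached by 1, 1 and 0 of the 10 genes, beside 3.91, 1.18 and 4.86 percent of all tested genes. That gene was VEGFA with both 5G6 and 6D7. It was 19.0 and 16.7 TPM in DMSO at 4 h, 29.3 and 31.6 with 5G6, 26.2 and 31.4 with 6D7, and 18.0 and 13.4 with 7F8. The 5G6 and 6D7 libraries lay above DMSO and the 7F8 libraries overlapped with it. The log2 changes were 0.74 ± 0.20 (SE; limma BH-adjusted p = 0.538), 0.66 ± 0.20 (adjusted p = 1) and -0.19 ± 0.20 (adjusted p = 1). Other targets called at 48 h were called with no compound at 4 h. BNIP3 ran from 42.4 to 81.5 TPM over the 8 libraries of 4 h, P4HA1 from 13.1 to 28.8, NDRG1 from 44.7 to 88.1 and ADM from 61.9 to 115. CA9 ran from 4.23 to 12.4 TPM and EGLN3 from 3.48 to 7.18.

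The change from 4 h to 48 h was tested as the compound's effect at 48 h minus its effect at 4 h. None of the 10 genes was called for 5G6, 6D7 or 7F8, beside 0, 0.0393 and 0.00654 percent of all tested genes. For BNIP3 this difference was 1.69 ± 0.55 (SE) with 5G6 and 2.24 ± 0.55 with 6D7 on the log2 scale, with limma BH-adjusted p of 0.552 and 0.233. An unadjusted p under 0.05 was reached by 2, 5 and 3 of the 10 genes, beside 7.52, 10.9 and 8.4 percent of all tested genes. In DMSO alone the 10 genes were also not called between 48 h and 4 h, beside 0 percent of all tested genes, and 1 of 10 had an unadjusted p under 0.05 beside 1.64 percent. A call at 48 h and none at 4 h is therefore not shown to be a difference between the times.

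The compounds were compared with each other at the same labelled dose, in 3 pairs at each time. At 48 h 5G6 exceeded 7F8 in 1 of 10 genes, CA9, beside 0.34 percent of all tested genes called. The CA9 difference was 3.63 ± 0.62 (SE) on the log2 scale with a 95% interval of 2.28 to 4.99 (limma BH-adjusted p = 0.0455), and 3.51 with adjusted p = 0.0458 after median-of-ratios scaling (0.124 percent of all tested genes). The 4 libraries did not overlap, at 56.9 and 78.7 TPM with 5G6 and 3.12 and 6.29 with 7F8. With any 1 of the 4 libraries left out, 0 of the 10 genes were called in this pair.

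6D7 exceeded 7F8 at 48 h in 3 of 10 genes on TPM, CA9, VEGFA and BNIP3, where 16.5 percent of all tested genes were called in either direction. The differences were 2.90 ± 0.62 (SE; limma BH-adjusted p = 0.0161), 0.93 ± 0.20 (0.0154) and 1.64 ± 0.39 (0.0216). After median-of-ratios scaling none was called, with differences of 2.35, 0.35 and 1.05 and adjusted p of 0.110, 0.532 and 0.223, beside 0.471 percent of all tested genes. Between 5G6 and 6D7 at 48 h 0 of 10 genes were called (0.0196 percent of all tested genes). The VEGFA difference there was -0.10 with a 95% interval of -0.53 to 0.32, and that of BNIP3 was -0.64 with an interval of -1.48 to 0.21. P4HA1 and ADM were called in none of the 3 pairs: between 5G6 and 7F8 they differed by -0.09 (-1.09 to 0.92) and -0.13 (-1.09 to 0.83), which does not show that the compounds act alike. At 4 h 0 of 10 genes were called in each pair, beside 0, 0.0131 and 0 percent of all tested genes.

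**Figure D3:**
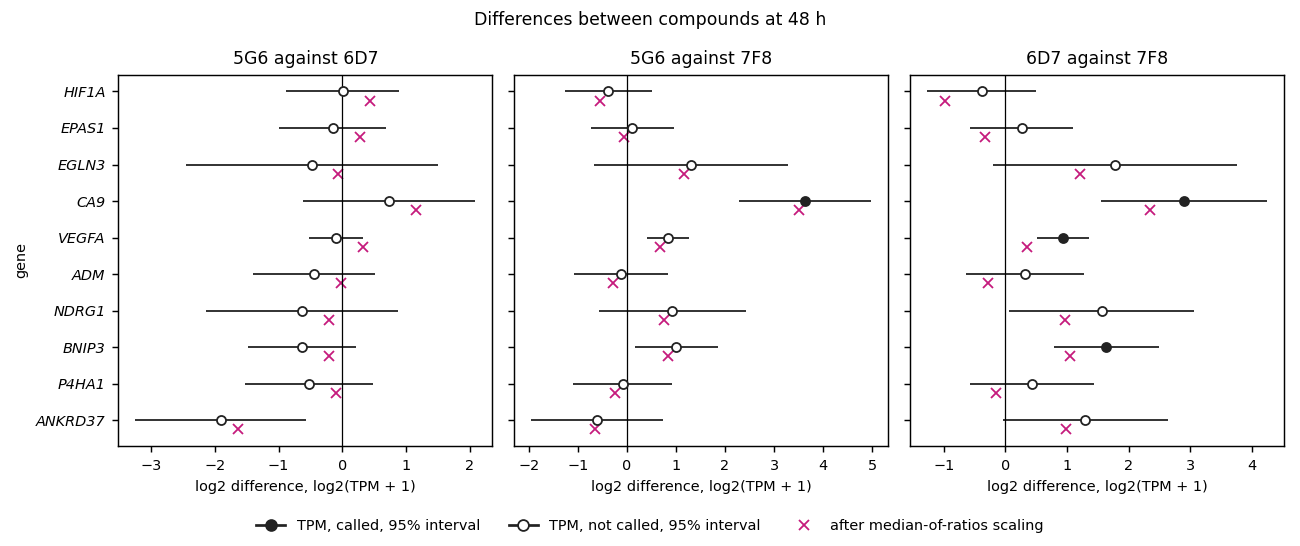
Log2 difference between 2 compounds at 48 h (x axis, log2(TPM + 1)) for each gene, with 95% intervals, filled points called by limma, and crosses for the same difference after median-of-ratios scaling. CA9 is called in 5G6 against 7F8 at 3.63 with its cross at 3.51, and in 6D7 against 7F8 the crosses lie below the points.

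The replicates differed in the same direction for many of these genes. At 48 h replicate 2 was higher than replicate 1 in 4 of 4 groups for HIF1A, EPAS1, CA9, EGLN3, NDRG1 and P4HA1, in 3 of 4 for VEGFA, BNIP3 and ANKRD37, and in 0 of 4 for ADM. Within DMSO at 48 h replicate 2 was 8.35-fold higher for EGLN3, 5.00-fold for NDRG1, 3.59-fold for CA9 and 2.45-fold for P4HA1, and 1.26-fold for VEGFA. The labels give no batch for the replicate numbers.

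Levels were compared between genes on coverage, the mean read depth over a gene. With the depth of each library divided out, the FPKM of HIF1A was 6.80 times its coverage and that of EPAS1 5.13 times. On the same footing BNIP3 and ADM were at 1.00. The place of the 2 factors in the order therefore depends on the unit, and which unit is nearer the truth was not tested. With the summed coverage of each library scaled to 1000000, DMSO at 4 h gave 133 ± 7.56 (SD, n = 2) for ADM, 104 ± 23.4 for BNIP3, 54.3 ± 12.5 for NDRG1, 33.8 ± 13.8 for EPAS1 and 25.6 ± 3.54 for HIF1A. Below them came P4HA1 at 17.6 ± 4.52, VEGFA at 17.4 ± 2.36, CA9 at 12.3 ± 4.86, EGLN3 at 8.85 ± 3.99 and ANKRD37 at 1.01 ± 1.42. The ranges of mean ± SD of neighbours in this order overlapped, except those of BNIP3 and NDRG1 and of EGLN3 and ANKRD37. With 6D7 at 48 h the order began with BNIP3 at 445 ± 3.96, NDRG1 at 426 ± 106 and ADM at 354 ± 192, which overlap in their spread. HIF1A was at 25.6 ± 16.1 there and at 38.4 ± 15.2 in DMSO at 48 h.

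Among themselves BNIP3 and P4HA1 had the closest patterns, with a root mean square difference of 0.40 on the centred log2 scale over 16 libraries, and CA9 and ANKRD37 the farthest at 1.39. Of 9847 eligible genes those nearest to each gene in the same measure included BNIP3L, a paralog of BNIP3 in mitophagy, for both BNIP3 (0.25) and NDRG1 (0.40). HILPDA, a lipid droplet protein known as a hypoxia target, was nearest to EGLN3 (0.46), with NDRG1 second (0.51). The keratin KRT19 was nearest to CA9 (0.58), PAM to P4HA1 (0.23), SFXN3 to VEGFA (0.25), AMPD3 to ADM (0.27), FOXRED2 to HIF1A (0.16) and ACACB to EPAS1 (0.18). The smallest of these differences belong to the genes that varied least.

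Other targets of the factors outside glycolysis were also called higher at 48 h, and none lower. Of 55 listed genes 52 were tested, and BHLHE41, RORA and CXCR4 were not. With 5G6 4 of 52 rose, with 6D7 22 and with 7F8 6, beside 1.87, 10.9 and 2.08 percent of all tested genes called higher. After median-of-ratios scaling the counts were 11, 13 and 12, beside 2.47, 3.09 and 3.69 percent. Their median log2 changes were 0.77, 1.21 and 0.53 in that order, beside all-gene medians of -0.07, 0.29 and -0.21. The 4 with the largest changes with 5G6 were MIR210HG (12.2 and 21.8 TPM against 0.87 and 4.19 in DMSO), the host transcript of a hypoxia microRNA, SPAG4 (27.7 and 31.7 against 4.41 and 9.50), LOXL2, a collagen cross-linking oxidase (282 and 410 against 74.2 and 110), and GYS1, glycogen synthase (36.1 and 59.3 against 14.7 and 25.9).

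With 6D7 the largest called were the secreted stanniocalcins STC1 (250 and 315 TPM against 9.34 and 75.1) and STC2 (190 and 134 against 29.4 and 21.4), MIR210HG (32.5 and 22.5 against 0.87 and 4.19) and BNIP3L (227 and 187 against 21.9 and 57.5). After scaling STC1 and STC2 had limma BH-adjusted p of 0.0652 and 0.0993, and BNIP3L and MIR210HG were still called (0.00927 and 0.0104). With 7F8 they included EFNA1, an ephrin ligand (620 and 450 against 51.3 and 59.1), PNRC1, a nuclear receptor coactivator (157 and 140 against 18.0 and 43.5), and EFNA3 (12.8 and 19.3 against 2.26 and 6.56). The genes named for each compound had no overlap between its libraries and those of DMSO, which their choice required.

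With any compound at most 4 of 20 partners and regulators of the factors were called at 48 h, on TPM or after median-of-ratios scaling. Of 21 listed genes 20 were tested (HIF3A was not), and 0, 4 and 1 were called higher with 5G6, 6D7 and 7F8, beside 1.87, 10.9 and 2.08 percent of all tested genes. After median-of-ratios scaling 1, 2 and 2 were called higher, beside 2.47, 3.09 and 3.69 percent, and none was lower on either scale. The 4 with 6D7 were CITED2, which competes for the coactivator of the factors (log2 change 2.09, limma BH-adjusted p = 0.0214), SIAH1 (1.48, 0.00631), OS9 (0.87, 0.0139) and ELOB (0.81, 0.0408). OS9 was the 1 gene with 7F8 (0.83). These values are on TPM. With 2 genes called with 6D7 after scaling, not all 4 of the 6D7 calls held. ARNT, VHL, EGLN1, the main oxygen-sensing hydroxylase, and HIF1AN, the asparagine hydroxylase, were called with no compound at either time. EGLN1 at 48 h was 45.8 and 38.6 TPM in DMSO and 20.6 and 26.2 with 7F8, a log2 change of -0.83 ± 0.30 (SE) with adjusted p = 0.108.

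**Figure D4:**
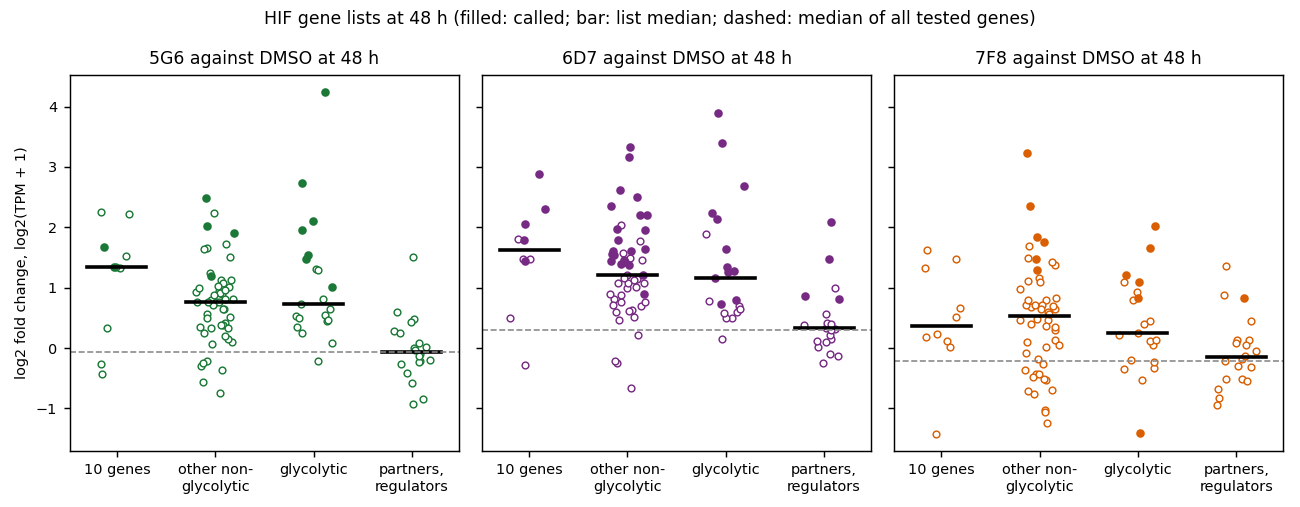
Log2 fold change against DMSO at 48 h (y axis, log2(TPM + 1)) of each tested gene in 4 groups of genes, with filled points called by limma, a bar at each median and a dashed line at the median of all tested genes. The bar of partners and regulators lies at -0.06 with 5G6, 0.33 with 6D7 and -0.15 with 7F8, near the dashed lines at -0.07, 0.29 and -0.21.

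The glycolytic targets of the factors, given for comparison, had 7 of 21 genes called higher with 5G6, 12 with 6D7 and 5 with 7F8 at 48 h, and 0, 0 and 1 called lower. Of all tested genes 1.87, 10.9 and 2.08 percent were called higher and 1.51, 1.52 and 6.4 percent lower. The 1 gene lower with 7F8, named after its value was seen, was PFKFB3, which makes an activator of glycolysis. After median-of-ratios scaling 10, 9 and 6 were called higher and none lower, beside 2.47, 3.09 and 3.69 percent of all tested genes higher and 1.46, 3.23 and 3.82 percent lower. Their median log2 changes were 0.73, 1.16 and 0.25. The largest with 5G6 and with 6D7 was the aldolase ALDOC (4.25 and 3.89). No difference between that list and the 10 genes was tested.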

How the data were processed

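Poly(A) RNA of A549 cells with CD63-Nluc was sequenced in 16 libraries, 2 per group in 8 groups of treatment and time, from NEBNext kits per the labels' protocols. The submitters' processing notes name STAR 2.6.1a, featureCounts 1.6.3, StringTie 2.0 and GRCh38, without their roles. The deposited tables have the columns of StringTie, per the file headers. TPM values were deposited by the authors, scaled to one sum per library. FPKM values, also deposited by the authors, differ from TPM by one factor per library. Coverage, per the file headers, is the mean read depth of a gene, not scaled between libraries. No read counts were used, and depth was taken from FPKM and coverage (6.10 to 8.86 aligned gigabases).

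Rows of one gene name were added. Genes below 1 TPM in all but 1 library or in all were left out, and the other 15285 were fitted as log2(TPM + 1) with limma 3.58.1 (R 4.3.3), 8 group means, 8 residual degrees of freedom and a mean-variance trend. Tests were two-sided with Benjamini-Hochberg adjustment over all tested genes within each of 16 comparisons, and the call was an adjusted p below 0.05. The procedure was tested on simulated data. The 10 genes and the gene lists were chosen with earlier results of these data known, so their counts stand beside the share of all genes called and carry no test. All 10 genes are named. From the lists, up to 4 called genes per direction were named for each compound, those with the largest change among genes with mean TPM of at least 5 and libraries that did not overlap, and ARNT, VHL, EGLN1 and HIF1AN always. CITED2, SIAH1, OS9, ELOB, ALDOC and PFKFB3 were named after their values were seen. Some items that these rules would name are not reported here. The likeness of patterns was the root mean square difference of median-of-ratios scaled log2 values, each gene centred. Alternatives were median-of-ratios scaling, FPKM, no filter, a pseudocount of 0.1, TPM without TRNC and TRNY, no trend, 1 time point alone, a replicate block and leaving out each library. Coverage in place of TPM, and the block with scaling, were added after the data were seen. Tables were read with Python 3.11.15 and pandas 2.3.3, and figures drawn with matplotlib 3.10.9.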

Additional observations from a re-analysis of the deposited data

How the results depend on the processing

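Groups of 2 libraries limit every call. The number of the 10 genes called at 48 h against DMSO was 2, 5 and 0 with 5G6, 6D7 and 7F8. It was 4, 4 and 2 after median-of-ratios scaling, 3, 4 and 1 with FPKM, 2, 3 and 1 with TPM without TRNC and TRNY, 2, 2 and 1 with coverage, 1, 3 and 0 with no filter, 1, 5 and 0 with no trend, and 0, 2 and 0 with the libraries of 48 h alone. With 1 library left out it ran from 0 to 2, 1 to 4 and 0 to 1. For 5G6 against 7F8 at 48 h the 1 gene became 0 with no filter, 0 with 48 h alone and 0 to 0 with 1 library left out. For 6D7 against 7F8 at 48 h the 3 genes became 0 with FPKM, coverage, TPM without TRNC and TRNY, median-of-ratios scaling and 48 h alone, and 0 to 2 with 1 library left out. The other comparisons gave 0 of the 10 genes in every setting except the block. The cause of these moves was not tested.

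The replicate numbers are not said to pair the libraries, and a group holds only 2. Deviations of same-numbered libraries correlated at 0.407 to 0.630 in the 6 comparisons with DMSO, and above 0.1 in 25 of 28 pairs of groups (lowest 0.0576). With the replicate number as a block, limma called 6, 6 and 4 of the 10 genes at 48 h against DMSO (CA9 lower with 7F8, the others higher), 2 for 5G6 against 7F8, 5 for 6D7 against 7F8 and 1 for the 6D7 effect at 48 h minus that at 4 h. With the block and median-of-ratios scaling it called 6, 6 and 6 against DMSO, again with CA9 lower with 7F8.

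Over all genes, 517, 1899 and 1297 were called at 48 h with 5G6, 6D7 and 7F8, and 3, 0 and 0 at 4 h. For 48 h these counts were 1739, 3806 and 2944 with the block, 1605, 2091 and 2362 with the block and scaling, and 8, 403 and 169 with 48 h alone. With 6D7 at 48 h they were 1021 with FPKM, 966 with median-of-ratios scaling, 958 without TRNC and TRNY and 887 with coverage. With 1 library left out they ran from 5 to 122, 169 to 2321 and 34 to 875, and at 4 h from 0 to 2, 0 to 1 and 0 to 19. At 4 h no filter gave 22, 2 and 7 and the block 7, 0 and 0.

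Counts over the gene lists were taken for each list, comparison and setting. Of these counts 65 moved by more than 1.5 times, or to or from 0, and 187 moved by less or not at all. Of the values of single genes 33 lost a call in a setting and 31 gained one. No called value changed sign, and 52 values of genes that were not called did. With 7F8 at 4 h median-of-ratios scaling, with or without the block, turned HIF1A to 0.0436, EPAS1 to 0.0876, EGLN3 to 0.0047 and BNIP3 to 0.0286. The rest came from leaving out 1 library, with these ranges of log2 change against DMSO. With 7F8 at 4 h they were HIF1A -0.16 to 0.0343, EPAS1 -0.40 to 0.36, EGLN3 -0.52 to 0.35, CA9 -0.80 to 0.56, VEGFA -0.39 to 0.0146, ADM -0.34 to 0.45, BNIP3 -0.52 to 0.37, P4HA1 -0.40 to 0.68 and ANKRD37 -0.56 to 1.27. With 6D7 at 4 h they were EPAS1 -0.10 to 0.66, EGLN3 -0.66 to 0.21, CA9 -0.41 to 0.40, BNIP3 -0.27 to 0.41, P4HA1 -0.0674 to 0.52 and ANKRD37 -0.67 to 0.44. With 5G6 at 4 h they were EPAS1 -0.0112 to 0.75, EGLN3 -0.53 to 0.34, CA9 -0.65 to 0.16 and BNIP3 -0.31 to 0.26. At 48 h they were EGLN3 -0.0597 to 2.72, EPAS1 -0.0687 to 0.74 and HIF1A -0.69 to 0.15 with 5G6, EPAS1 -0.0048 to 0.98 and HIF1A -0.95 to 0.40 with 6D7, and EGLN3 -1.37 to 1.41, HIF1A -0.31 to 0.53 and ANKRD37 -0.43 to 0.79 with 7F8.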
